A study of Mus musculus with 4 samples.

Results

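Lysosome genes and the transcription factors of the TFEB family were followed in 32Dcl3-Abl1ko cells growing with or without IL-3. The set was a named list of 33 genes among the 23756 genes of the deposited table, made of 30 lysosome genes and the factors Tfeb, Tfe3 and Mitf, and was chosen by gene name. 32Dcl3 is an IL-3-dependent murine hematopoietic line from bone marrow, and IL-3 is the cytokine that keeps it alive and dividing. RNA-seq compared 2 libraries from cells that were given IL-3 (Abl1ko/IL3+) with 2 libraries from cells cultured in its absence (Abl1ko/IL3-). The paper calls the Abl1ko/IL3- cells IL-3-independent and describes such cells growing out of Abl1ko populations under gradual IL-3 withdrawal. Removal of IL-3 and the outgrowth of such cells cannot be told apart in this comparison. Both groups carried the Abl1 knockout, made with CRISPR/Cas9 and lentiviral guides, so the control is not a wild-type line. The study describes more than 1 guide and clones that grew without IL-3, but no source used here ties a guide or clone to a library, and the duplicates were called biological without further detail. Cells with unedited Abl1 were not analysed here.

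The lysosome is the acidic compartment in which proteases, glycosidases, sulfatases and lipases break down material from endocytosis and autophagy. Its membrane carries heavily glycosylated proteins, the proton pump and transporters that release the products. TFEB, TFE3 and MITF are related basic helix-loop-helix leucine zipper factors that bind the E-box CACGTG found before many lysosome genes. Their entry into the nucleus is held back by mTORC1 at the lysosomal surface when nutrients and growth factors are plentiful, so much of their control is on the protein and not on the RNA measured here. In myeloid cells the lysosome is closely related to the granules that store microbicidal enzymes.

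The libraries held 48953174 to 60382588 counts. CPM is a count scaled to a common library size, and by library size alone 3 counts corresponded to 0.0497 to 0.0613 CPM across them. The Abl1 counts were 1322 and 2222 in the IL3+ libraries against 1544 and 2256 in the IL3- libraries, which checks little, since small edits of a coding exon can leave the RNA in place. The labels call the line a pre-B cell. Of the B cell markers, Rag1 and Ms4a1 had 0 to 4 counts and Cd79b, the highest by mean FPKM, 607 to 1044 counts, whereas Mpo, the peroxidase of immature myeloid cells, had 28978 to 121109 counts. In bulk RNA, fewer cells of a type and less RNA per cell cannot be told apart. Across all 16535 genes that passed the filter on low counts, edgeR's quasi-likelihood F test called 0% at an adjusted p of 0.05 and 5.91% at an unadjusted p of 0.05. With 2 libraries a group, an exact permutation test cannot go below 0.333, so single values were not tested that way.

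Of the 31 members that passed the filter on low counts, Tfeb had the largest log2 fold change in size. Its RNA was at 8.89 and 24.8 CPM in the Abl1ko/IL3+ libraries and at 1.38 and 3.03 CPM in the Abl1ko/IL3- libraries. The groups did not overlap: the lower IL3+ value was 2.93 times the higher IL3- value, and the group means differed 7.64-fold. Behind these values were 573 and 1348 counts for the IL3+ libraries, against 66 and 176 for the IL3- libraries. The log2 fold change, given throughout as IL3- over IL3+, was -2.93 (SE 0.76), with an unadjusted p of 0.0118 and an adjusted p of 0.727 (edgeR, Benjamini-Hochberg over all genes). Tfeb thus did not pass the test. DESeq2's Wald test on the same counts gave an adjusted p of 0.00918 and called 1.64% of the genes, so the call differed between the tools. By edgeR's p, Tfeb stood at rank 241 of 16535, and 201 genes had a log2 fold change as low or lower. Among the 9436 genes with a mean CPM at or above that of Tfeb, 52 had such a log2 fold change. The gene lies at chr17:47737030-47792419 on the plus strand (GRCm38), and none of its exons overlaps another annotated gene.

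Tfe3 encodes the closest relative of TFEB, and both proteins act on largely the same promoters. It was at 46.5 and 65.4 CPM with IL-3 and at 47.6 and 60.04 CPM without it, so the IL3- libraries lay inside the IL3+ range. The log2 fold change was -0.06 (SE 0.35, adjusted p = 0.996). The difference from Tfeb was not tested as such.

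Mitf, the factor of melanocytes, osteoclasts and mast cells, was low and uneven, with 6.53 and 3.24 CPM in the IL3+ libraries and 6.06 and 0.81 CPM in the IL3- libraries. The lowest value came from 47 counts. Its log2 fold change of -0.51 had an SE of 1.02. Tfec, the fourth gene of this family and a gene of macrophages, is not among the 33. It was at 39.7 and 23.0 CPM with IL-3 and 15.7 and 27.9 CPM without, which overlap (log2 fold change -0.52, SE 0.49, adjusted p = 0.933).

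**Figure D1:**
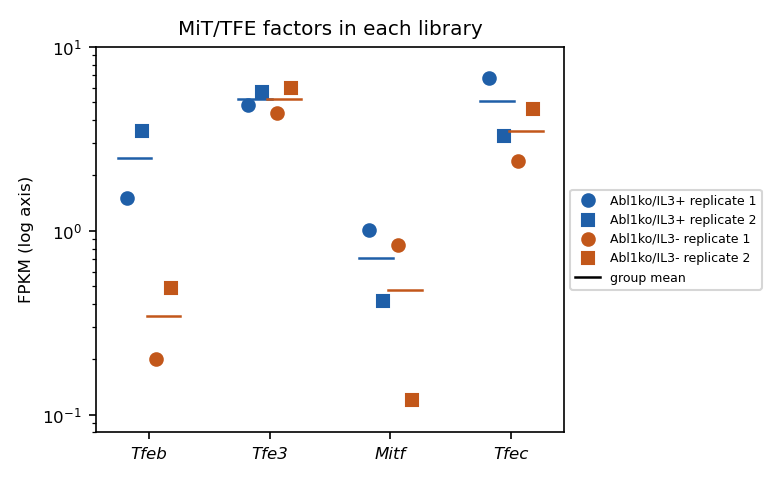
FPKM on a log axis for Tfeb, Tfe3, Mitf and Tfec, with 1 point for each of the 2 Abl1ko/IL3+ and 2 Abl1ko/IL3- libraries. Only for Tfeb do the groups lie apart, at 1.499 and 3.497 FPKM with IL-3 against 0.20 and 0.49 FPKM without, while the Tfe3 points lie between 4.39 and 5.996 FPKM.

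Levels of different genes are compared here in FPKM, a count scaled by gene length and library depth, because a longer transcript yields more counts. Tfe3 was the most abundant of the 3 factors in every library, at 4.83 and 5.66 FPKM with IL-3 and at 4.39 and 5.996 FPKM without. Tfe3 exceeded Tfeb 3.22-fold and 1.62-fold in the IL3+ libraries and 21.9-fold and 12.3-fold in the IL3- libraries. Tfeb accounted for 20.4% and 36.5% of the summed FPKM of the 3 factors with IL-3, and for 3.69% and 7.39% without. The sum itself was 7.34 and 9.57 FPKM with IL-3 and 5.42 and 6.604 FPKM without. Of the summed FPKM of these 3 factors, which leaves out Tfec, Tfe3 held 80.9% and 90.8% without IL-3 and 65.8% and 59.1% with IL-3. Tfec itself was at 6.82 and 3.29 FPKM with IL-3 and at 2.40 and 4.61 FPKM without, above Tfe3 in IL3+ replicate 1.

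No lysosome gene passed the edgeR test, whose lowest adjusted p among them was 0.854, and 0 of the 28 that could be tested had an unadjusted p under 0.05, against 5.91% of all genes. Tfeb was the only one of the 31 tested members under that limit. Of the 28, 12 had a log2 fold change above 0 and 16 below 0, with a median of -0.06 beside -0.03 for all genes tested. In 5 the IL3- libraries both lay above the IL3+ libraries (Hexa, Cln3, Mcoln1, Naglu and Cd63), and in 5 both lay below (Ctsc, Ctsd, Glb1, Npc2 and Man2b1). Over all genes tested, 19.4% lay apart in the upward direction and 17.9% in the downward direction. The share of lysosome genes that lay apart was thus near that of genes at large.

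The sign of the median rested on single IL3+ libraries. It was -0.31 without Abl1ko/IL3+ replicate 2 and 0.13 without Abl1ko/IL3+ replicate 1. Abl1ko/IL3+ replicate 1 held the highest value of the 4 libraries for 14 of the 28 genes, against 5, 3 and 6 for the others in the order IL3+ replicate 2, IL3- replicate 1 and IL3- replicate 2. Over all genes it held the highest value for 31.8%. The IL3+ replicates differed from each other by more than 1.5-fold in 14 of the 28 genes and the IL3- replicates in 7. In 22 of the 28, the replicates of at least 1 group lay further apart than the groups did, a situation shared by 74.2% of all genes.

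**Figure D2:**
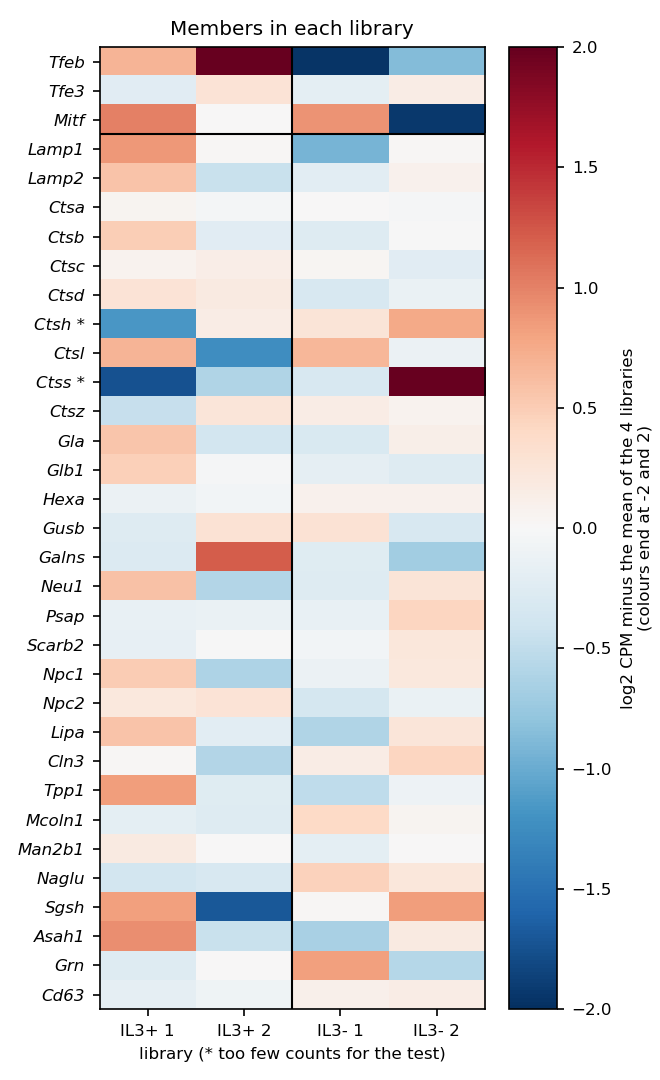
The log2 deviation of each of the 33 members from its own mean over the 4 libraries, with genes as rows, libraries as columns, and asterisks for Ctsh and Ctss, which were not tested. The IL3+ replicate 1 column is the highest for 14 of the 28 lysosome genes, and the Tfeb row stands out by its contrast between the groups.

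Of the 7 lysosomal membrane proteins, 3 lay apart higher without IL-3 and 0 lower, beside 19.4% and 17.9% of all genes tested. Counts this small are not read as a trait of a class, here or in the classes below. Lamp1 encodes a glycoprotein that lines the membrane and shields it from the hydrolases, and it was the most abundant member in 3 of 4 libraries. It measured 1489 and 827.1 CPM with IL-3 and 426.3 and 827.6 CPM without. The upper IL3- library thus matched the lower IL3+ library, and the log2 fold change of -0.89 had an SE of 0.52 (adjusted p = 0.884). In FPKM, Lamp1 alone made up 28.4% and 17.9% of the sum of the 30 lysosome genes with IL-3 and 10.5% and 17.7% without. Lamp2, which encodes the related glycoprotein used in chaperone-mediated autophagy, was at 184.8 and 91.2 CPM with IL-3 and at 108.0 and 131.9 CPM without.

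Cd63, a tetraspanin of lysosomes and of azurophil granules, was second in level at a mean of 241.6 FPKM. It was at 886.7 and 946 CPM with IL-3 and at 1072 and 1114 CPM without, so the groups lay apart by a narrow margin (log2 fold change 0.25, SE 0.32). Mcoln1 encodes the calcium channel TRPML1, whose current activates calcineurin and thereby TFEB. It was at 38.4 and 37.1 CPM with IL-3 and at 58.2 and 45.7 CPM without (log2 fold change 0.46, SE 0.32, adjusted p = 0.900). Cln3, the membrane protein lost in juvenile neuronal ceroid lipofuscinosis, was at 13.0 and 8.46 CPM with IL-3 and at 14.1 and 17.1 CPM without, and its exons overlap those of Apobr on the other strand. Scarb2, the receptor that carries glucocerebrosidase to the lysosome, was at 49.01 and 54.7 CPM against 52.8 and 64.1 CPM and overlapped. Npc1, which exports cholesterol through the membrane, spread from 30.3 to 65.9 CPM within the IL3+ group alone, with the IL3- libraries at 42.6 and 53.7 CPM.

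Of the 7 proteases tested, 0 lay apart higher without IL-3 and 2 lay apart lower, beside 19.4% and 17.9% of all genes tested. Ctsd, the aspartic protease cathepsin D, was the most abundant of them at a mean of 175.6 FPKM. It was at 555.1 and 520.2 CPM with IL-3 and at 367.9 and 416.7 CPM without. The replicates of each group lay closer together than the groups did, and the lower IL3+ value was 1.25 times the higher IL3- value. The log2 fold change was -0.45 (SE 0.31) and the adjusted p 0.900. Exons of Ctsd overlap the predicted gene Gm49369 on the same strand, so the counting can move reads between them. Ctsc, which activates the granule serine proteases of neutrophils, was at 75.3 and 78.5 CPM with IL-3 and at 74.1 and 61.2 CPM without, a gap of 1.02-fold between the nearest libraries.

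The other abundant cathepsins overlapped between the groups. Ctsz, a carboxypeptidase, had a mean of 159.3 FPKM and was at 187.3 and 305.9 CPM with IL-3 and at 285.3 and 269.1 CPM without. Ctsb, a cysteine protease, was at 294.3 and 179.1 CPM against 175.3 and 207.6 CPM. Ctsa, the protective protein that stabilizes neuraminidase and beta-galactosidase, varied little, at 139.0 and 130.5 CPM with IL-3 and 134.4 and 132.5 CPM without. Tpp1, the tripeptidyl peptidase, was at 104.7 and 49.8 CPM against 41.4 and 54.7 CPM (log2 fold change -0.68, SE 0.47).

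The cathepsins Ctsl, Ctsh and Ctss, which act in antigen-presenting cells among others, were scarcely present in this line. Ctsl had 8 to 45 counts, Ctsh 0 to 8 and Ctss 2 to 97. Ctsh and Ctss did not pass the filter on low counts and were not tested. The 97 counts of Ctss, the protease that degrades the invariant chain, came from Abl1ko/IL3- replicate 2 alone, and the other libraries held 2, 7 and 8. In that library Cd74, the invariant chain itself, was also highest, at 1804 counts against 241 to 666 in the others, and Cd14, a marker of monocytes and macrophages, had 589 counts against 0 to 8. Other macrophage markers did not all follow. Csf1r was highest there too, at 3711 counts. Adgre1 and C1qb had 6592 and 14 counts there but 12931 and 1104 in IL3+ replicate 1, and Fcgr1 had 593 there but 1117 in IL3+ replicate 2. The part of these cell types in the Ctss value was not tested.

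The glycosidases and sulfatases take sugars and sulfate groups off glycoproteins, glycolipids and glycosaminoglycans. Naglu, which removes N-acetylglucosamine from heparan sulfate, had the lowest p of the lysosome genes. It was at 52.3 and 54.1 CPM with IL-3 and at 92.5 and 79.3 CPM without. The groups lay apart, the lower IL3- value being 1.47 times the higher IL3+ value, and the replicates of each group were close. The log2 fold change of 0.69 (SE 0.30) had an unadjusted p of 0.0708 and an adjusted p of 0.854. Its neighbour in the same degradation route, the sulfamidase Sgsh, spread more widely within groups, with 7.48 and 1.27 CPM against 4.26 and 7.56 CPM.

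Hexa, the alpha subunit of the hexosaminidase lost in Tay-Sachs disease, was at 125.7 and 132.5 CPM with IL-3 and at 144.9 and 145.5 CPM without (log2 fold change 0.17, SE 0.29). Glb1, the beta-galactosidase stained for as a marker of senescence, was at 117.7 and 82.7 CPM with IL-3 and at 74.1 and 70.2 CPM without (log2 fold change -0.47, SE 0.33, adjusted p = 0.901). Glb1 shares exon sequence with Tmppe on the same strand. Man2b1, the lysosomal alpha-mannosidase, was the most abundant of this class at a mean of 90.1 FPKM. Its 921.3 and 812.8 CPM with IL-3 and 704.7 and 812.2 CPM without lay apart only by less than 1 CPM.

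Galns, the sulfatase of keratan sulfate, had the lowest log2 fold change of the lysosome genes, -1.10 (SE 0.58, adjusted p = 0.870). That value came from 1 library, Abl1ko/IL3+ replicate 2, at 68.1 CPM, while IL3+ replicate 1 was at 24.3 CPM beside 24.8 and 18.2 CPM without IL-3. Neu1, the sialidase, showed the opposite spread with 172.8 and 77.2 CPM in the IL3+ libraries and 96.7 and 138.9 CPM in the IL3- libraries. Gla, the alpha-galactosidase lost in Fabry disease, was at 49.9 and 26.2 CPM against 27.4 and 36.9 CPM. Gusb, the beta-glucuronidase, was at 75.4 and 111.0 CPM against 110.2 and 72.4 CPM, so that each group held 1 high and 1 low library.

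In the last class, genes of lipid handling and the granulin precursor, only Npc2 of 5 lay apart. It was lower without IL-3, as were 17.9% of all genes tested. Npc2 binds cholesterol in the lumen and hands it to NPC1. It was at 579.2 and 606.4 CPM with IL-3 and at 391.1 and 455.6 CPM without, and the lower IL3+ value was 1.27 times the higher IL3- value. The log2 fold change was -0.49 (SE 0.32, adjusted p = 0.898). Psap, the precursor of the saposins that help enzymes reach glycolipids, was at 389.7 and 397.2 CPM with IL-3 and at 392.4 and 582.2 CPM without, so only IL3- replicate 2 stood higher.

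Lipa, the acid lipase, was at 40.5 and 23.4 CPM with IL-3 and at 17.9 and 32.1 CPM without. Asah1, the acid ceramidase, was at 73.6 and 28.2 CPM against 24.5 and 43.5 CPM. Both genes were highest in IL3+ replicate 1 and lowest in IL3- replicate 1. Grn encodes progranulin, a secreted growth factor precursor that is cut into granulins in the lysosome. It was at 154.8 and 186.9 CPM with IL-3, whereas the IL3- libraries held both the highest value, 325.3 CPM, and the lowest, 124.7 CPM.

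**Figure D3:**
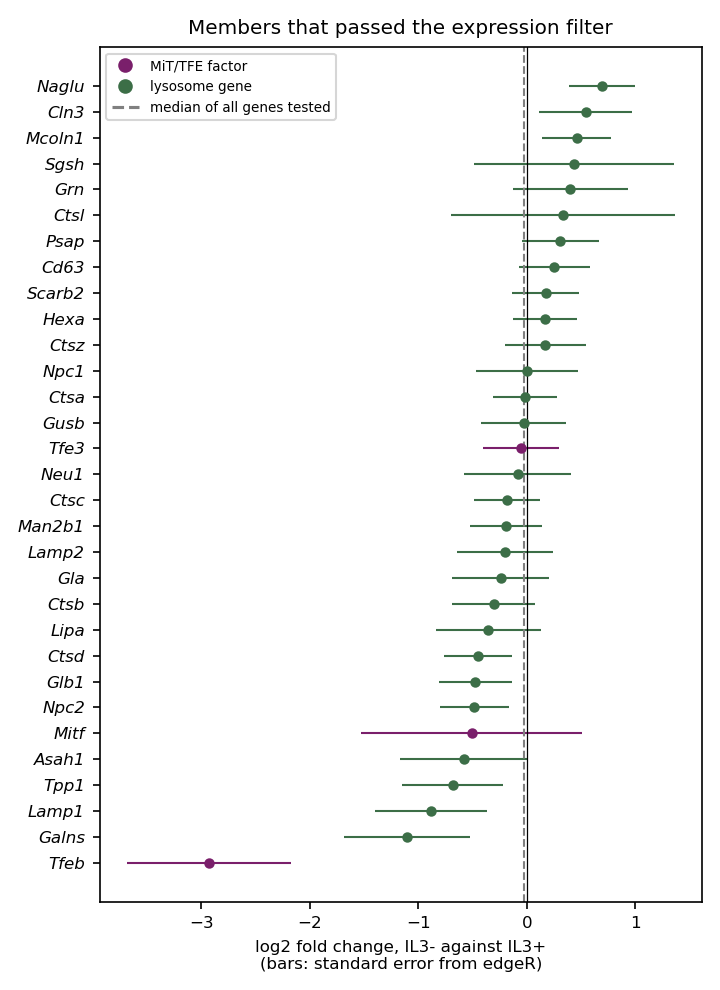
The log2 fold change of IL3- over IL3+ for the 31 tested members, with bars of 1 SE from edgeR. Tfeb lies at -2.93, and the lysosome genes lie between -1.10 (Galns) and 0.69 (Naglu) on both sides of 0.

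Ranked by mean FPKM, the lysosome genes ran from Lamp1 at 301.4 through Cd63 at 241.6, Ctsd at 175.6, Ctsz at 159.3 and Psap at 142.8 to Cln3 at 2.03 and Sgsh at 1.07, followed by the scarce Ctss, Ctsl and Ctsh. The first 5 made up 66.6% and 66.4% of the summed FPKM with IL-3 and 62.2% and 68.0% without. In IL3- replicate 1, Lamp1 was at 136.2 FPKM, behind Cd63 at 248.8 FPKM and Ctsz at 169.2 FPKM. Ctsd and Ctsz did not keep a fixed order either, since Ctsd was higher in both IL3+ libraries and Ctsz in both IL3- libraries.

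Set against the factors, the summed FPKM of the 30 lysosome genes was 1887 and 1381 with IL-3 and 1303 and 1618 without, which overlap. The library with the most Tfeb, IL3+ replicate 2 at 3.497 FPKM, had a lower sum than IL3+ replicate 1 and IL3- replicate 2, where Tfeb was at 1.499 and 0.49 FPKM. The lysosome sum per FPKM of Tfeb was 1258 and 395 with IL-3 and 6514 and 3316 without. The sum per FPKM of the 3 factors together was 257.1 and 144.3 with IL-3 and 240.2 and 245.0 without. The 4 libraries are too few for a correlation, and none was computed.

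**Figure D4:**
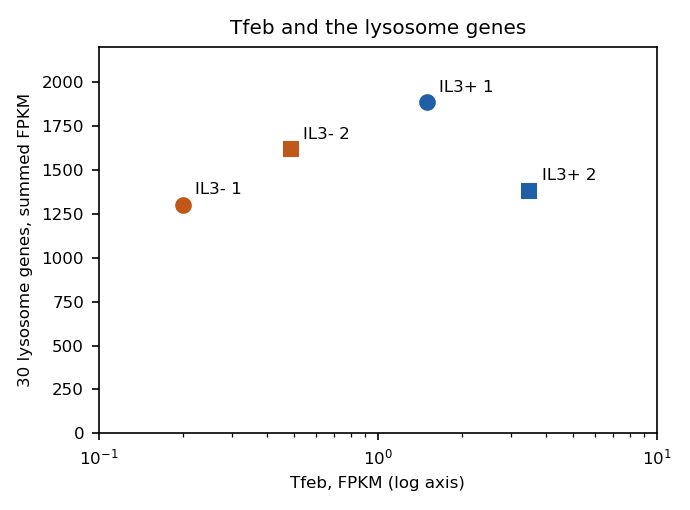
Summed FPKM of the 30 lysosome genes against the FPKM of Tfeb on a log axis, with 1 point a library. The sums of 1887 and 1381 with IL-3 and of 1303 and 1618 without overlap although Tfeb ran from 0.20 to 3.497 FPKM.

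The E-box was looked for in promoters, since it is a sequence that these factors bind before many lysosome genes. Binding was not measured here. RefSeq promoters (GRCm38.p6, 250 bases before to 50 after a start) were at hand for 28 of the 33 members. CACGTG, which reads the same on both strands, occurred in 10 of 28 lysosome gene promoters (35.7%), from 10 of 25 genes, against 7.15% of 32851 promoters. The longer CACGTGA, on either strand as TCACGTG and containing the same E-box, occurred in 32.1% against 3.77% of all promoters. None of the 8 promoters of Tfeb, Tfe3 and Mitf held the E-box within this window. Lamp1 held 4 copies, a number reached by 0.0244% of all promoters. Its stretch at chr8:13159081-13159160 (plus strand) is shown because the copies lie within 80 bases, followed by windows of 30 bases from the 5 genes with an E-box whose groups lay apart, each at its copy nearest to the start. Capitals mark the E-box, and sequences read 5′ to 3′ on the strand of the gene.
Lamp1: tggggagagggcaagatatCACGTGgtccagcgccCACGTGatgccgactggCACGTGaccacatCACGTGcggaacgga
Naglu: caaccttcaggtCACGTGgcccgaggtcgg
Mcoln1: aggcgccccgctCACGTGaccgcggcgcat
Cln3: cacgggtactgtCACGTGacccccaacctg
Ctsd: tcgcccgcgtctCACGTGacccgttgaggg
Glb1: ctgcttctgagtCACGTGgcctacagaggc

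The windows lie at chr11:101070009-101070038 (plus strand) for Naglu, chr8:3500462-3500491 (plus) for Mcoln1, chr7:126583340-126583369 (minus) for Cln3, chr7:142387908-142387937 (minus) for Ctsd and chr9:114401018-114401047 (plus) for Glb1. Counted from the RefSeq start, the first base of the E-box was at -73, -45, -121, -98 and -48 in that order. The deposited gene spans can open elsewhere. The E-boxes shown for Naglu, Mcoln1, Cln3 and Ctsd lay inside those spans, and that of Glb1 lay before its span. The genes with an E-box lay on both sides of 0. Naglu, Mcoln1 and Cln3 were higher without IL-3, with log2 fold changes of 0.69, 0.46 and 0.54, whereas Ctsd and Glb1 were lower, at -0.45 and -0.47. Over the 10 tested genes with the E-box the median log2 fold change was 0.16, with a range from -0.89 (Lamp1) to 0.69 (Naglu), and over the 14 tested genes with a promoter but no E-box it was -0.06. For the longer CACGTGA, which leaves out the scarce Ctsl, the medians were -0.01 over 9 genes with it and -0.03 over 15 without. A match of letters is not a bound site.

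Lists of other genes, 107 in all, were read in the same way. They cover the lysosome, enzyme sorting, control of the factors, and targets of the factors outside the lumen. Of the 101 that could be tested, 0 passed the edgeR test at an adjusted p of 0.05, 16 lay apart higher and 18 lower without IL-3, and the median log2 fold change was -0.05. The shares over all genes tested were 19.4% and 17.9%, as above, and the counts for each list that follow are to be read beside them. The subunits of the proton pump, the V-ATPase that acidifies the lumen, had 17 of 17 tested, a median of 0.11, and 2 apart higher and 4 lower. Atp6v1g1 was its most abundant, at 100.4 and 155.6 CPM with IL-3 and at 139.9 and 155.8 CPM without. The 23 genes listed for control of the factors, among them those of mTORC1, Ragulator, folliculin and calcineurin, had a median of 0.03. Of these, 3 lay apart higher and 4 lower. The 9 genes that sort enzymes to the lysosome had a median of -0.19, with 1 apart higher and 2 lower.

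The remaining lists were enzymes, membrane proteins and targets of the factors. Of 28 other hydrolases, 25 were tested, the median log2 fold change was -0.13, and 5 lay apart higher and 4 lower. Arsb, the sulfatase of dermatan sulfate, was at 369 and 117.3 CPM with IL-3 and at 124.2 and 222.2 CPM without. Of 20 other membrane proteins, 19 were tested, with a median of 0.15, and 5 lay apart higher and 1 lower. Laptm5, a membrane protein of hematopoietic lysosomes, was at 805.7 and 497.6 CPM against 740.2 and 755.9 CPM. Of 10 targets of the factors outside the lumen, 8 were tested, with a median of -0.18, and 0 lay apart higher and 3 lower. Sqstm1, the autophagy receptor p62, was the most abundant of these, at 619.4 and 403.9 CPM with IL-3 and at 391.7 and 507.2 CPM without.

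Across these lists, 3 of 101 genes had an unadjusted p under 0.05, a smaller share than the 5.91% of all genes, and their values follow as a description. Ppt1, the palmitoyl-protein thioesterase lost in infantile neuronal ceroid lipofuscinosis, was at 260.8 and 266.7 CPM with IL-3 and at 110.7 and 140.3 CPM without. Its groups lay far apart beside the spread of the replicates, with a log2 fold change of -1.07 (SE 0.32, edgeR adjusted p = 0.737), and its exons overlap those of Cap1 on the other strand. Uvrag, a gene of autophagosome and endosome maturation among the targets of the factors, was read 3072 and 329 times with IL-3 against 105 and 174 times without, so its log2 fold change of -3.37 (SE 1.05, edgeR adjusted p = 0.770) leaned on IL3+ replicate 1. Slc11a1, the phagosomal metal transporter NRAMP1 of myeloid cells, had 0 counts in both IL3+ libraries and 18 and 95 counts without IL-3 (edgeR adjusted p = 0.727). It passed the filter on low counts only through the IL3- libraries. Its direction was thus fixed by the filter, and its place among the 3 is not read as a result.

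**Figure D5:**
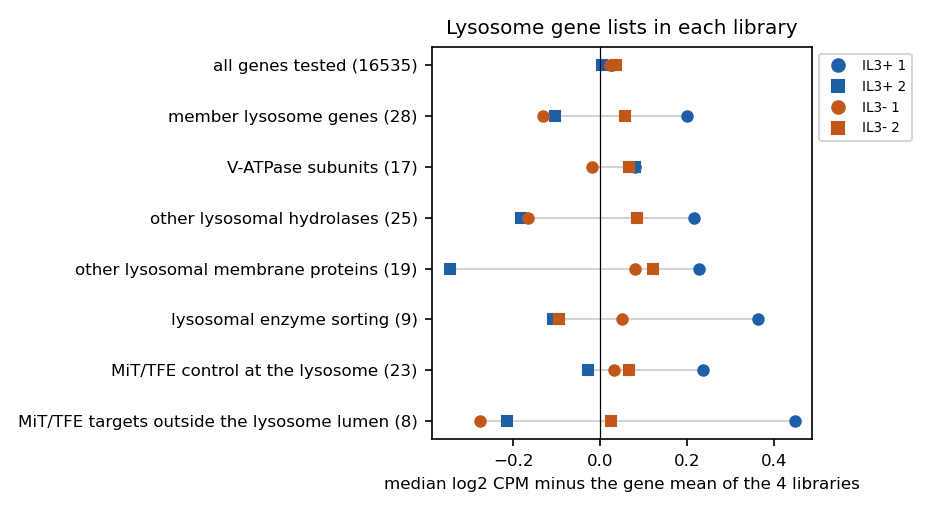
The median log2 deviation from the mean of the 4 libraries for all genes tested, the lysosome genes among the 33 members and the other lists, with 1 point a library and the number of genes in brackets. IL3+ replicate 1 is the highest library for the lysosome genes, at 0.20 beside -0.13 to 0.06 in the others.

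Summed levels of myeloid markers differed between single libraries. Between the groups, only the neutrophil and immature myeloid sums did not overlap, the neutrophil sums by 944.3 against 963.1 CPM at the nearest. The summed level of 10 neutrophil markers was 944.3 and 358.3 CPM with IL-3 and 963.1 and 5455 CPM without. Most of it in every library was Ngp, at 686.9 and 240.5 CPM with IL-3 and 609.8 and 4003 CPM without, whose groups overlapped. In this list, 5 of the 9 tested genes had an unadjusted p under 0.05 (edgeR), all higher without IL-3, beside 5.91% of all genes. None of the 9 passed the adjusted test (edgeR, lowest adjusted p = 0.532), and Cxcr2 and Mmp9 had log2 fold changes of -0.91 and -0.33. S100a8, a calcium-binding protein of maturing neutrophils, was read 74 and 21 times with IL-3 against 3410 and 7167 times without. The immature myeloid markers summed to 3709 and 3190 CPM with IL-3 and 2549 and 2176 CPM without, and without Mpo to 1830 and 1713 CPM against 1641 and 1677 CPM. Of the 9 tested, Mpo alone lay apart, at 1879 and 1477 CPM against 908.4 and 499.3 CPM, with Kit at 0 to 4 counts in every library. The dendritic cell markers summed to 8.24 and 12.9 CPM with IL-3 and 6.31 and 33.4 CPM without.

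The IL3+ replicates also differed in other marker lists, though not in the same direction for every gene. The 10 macrophage markers in the table summed to 262.8 and 74.9 CPM with IL-3 and 88.5 and 199.3 CPM without, led by Adgre1 with 12931 and 2470 counts against 2502 and 6592, and Mrc1 had 0 to 10 counts. IL3+ replicate 1 was above replicate 2 for 6 of these 10 markers and below it for 3, among them Fcgr1 at 5.10 against 20.5 CPM. The 9 mast cell and basophil markers summed to 1464 and 259.2 CPM with IL-3 and 433.8 and 457.2 CPM without, led by Prss34 at 695.1 and 134.4 CPM against 252.2 and 201.9 CPM, and Tpsb2 had 0 to 4 counts. Here IL3+ replicate 1 was above replicate 2 for 6 of 9 markers and below it for 3, among them Mcpt8 at 19.0 against 50.4 CPM. Mitochondrially encoded genes took 2.55% and 1.28% of counts with IL-3 and 4.01% and 3.31% without. The part of these differences in the lysosome gene values was not tested.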

How the data were processed

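Total RNA depleted of ribosomal RNA was sequenced in 4 libraries on an Illumina HiSeq instrument. The authors deposited raw counts per gene and FPKM values. The study's methods name Rsubread and featureCounts on GRCm38, while the submitters' processing notes name STAR, Cuffdiff and mm10. Versions and the strand setting are not given in the sources used here, so reads of overlapping genes may be shared: exons of 12 of the 33 members overlap another gene in GENCODE M21. Groups and replicate numbers came from the labels. Members and lists were chosen with earlier results of these data known. All 33 members and Tfec were named, and from other lists genes under an unadjusted p of 0.05, the most abundant, and markers at 0 or highest. Markers shown near 0, Cd14, Cxcr2, Mmp9, Fcgr1 and Mcpt8 were picked after their values were seen, and some list genes are not reported here.

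Counts were fitted with edgeR 4.0.16 in R 4.3.3 (filterByExpr, minimum 10 counts, TMM, quasi-likelihood F test, two-sided, Benjamini-Hochberg, threshold 0.05). CPM values are TMM-scaled, except the CPM given for 3 counts, and FPKM values are as deposited. Deviations were taken on log2(CPM + 0.05). Floors of 3 counts cover counting error only, whereas the SEs come from the edgeR fit, which also estimates the spread between libraries. Where duplicates came from 1 culture, p-values measure technical spread. The steps were tested on simulated data. Alternatives were DESeq2 1.42.0, limma 3.58.1 on log2(FPKM + 1) and log2(FPKM + 0.1), other scalings and filters, blocks on the replicate number, and leaving out each library.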

Additional observations from a re-analysis of the deposited data

How the results depend on the processing

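With 2 libraries a group, small differences were not detectable, and no adjusted call was reached by edgeR in any scaling, filter or block. The exceptions were DESeq2, which called 271 genes and 1 member, Tfeb (log2 fold change -2.94, adjusted p = 0.00918), and edgeR without Abl1ko/IL3- replicate 1, which called 15 genes and no member; over the libraries left out, the number of genes ranged from 0 to 15. Members under an unadjusted p of 0.05 numbered 2 without the filter and 2 with limma on log2(FPKM + 1), and 1 to 3 with a library left out (3 without either Abl1ko/IL3+ replicate). The Tfeb log2 fold change stayed below 0 throughout, from -3.60 to -2.01 with a library left out and at -1.33 with limma on log2(FPKM + 1). The lysosome median was -0.08 to -0.005 under the other settings and -0.31 to 0.13 with a library left out. The cause of these changes was not tested. For these settings, the share of all genes under an unadjusted p of 0.05 is not given here. The counts of members under that limit have no background beside them and are not read as a stronger result.

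Log2 fold changes near 0 changed sign: Npc1 (-0.0013 with DESeq2's size factors, -0.0074 with library size only, -0.0021 without the filter, -0.0013 with DESeq2), Tfe3, Ctsa and Gusb with library size only (0.0036, 0.015 and 0.018), and Ctsa (0.0048 and 0.0054) and Neu1 (0.018 and 0.023) with limma on log2(FPKM + 1) and log2(FPKM + 0.1). With a library left out the ranges were -0.27 to 0.21 for Tfe3, -2.59 to 0.32 for Mitf, -0.62 to 0.41 for Lamp2, -0.059 to 0.048 for Ctsa, -0.62 to 0.11 for Ctsb, -0.13 to 0.57 for Ctsz, -0.63 to 0.31 for Gla, -0.55 to 0.63 for Neu1, -0.83 to 0.11 for Lipa, -1.11 to 0.29 for Asah1, -0.39 to 1.86 for Ctsl, -0.36 to 0.28 for Gusb, -0.45 to 0.68 for Npc1, -0.34 to 2.23 for Sgsh and -0.45 to 0.94 for Grn. Of 415 combinations of a setting with a member or Tfec, 377 kept direction and side of the threshold.

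Same-numbered libraries did not deviate together. The r was -0.20 across all genes tested and -0.48 across the 28 lysosome genes, and genes are not replicates. With 2 libraries a group, this cannot show whether the number marks a shared clone, guide or day. With the replicate block, edgeR called 0 genes, the lysosome median was -0.02, Tfeb was at -2.86 and Neu1 at 0.0047. The crossed pairing, added after seeing the data, also gave 0 calls, with Neu1 at 0.0046.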
